A study of Mus musculus with 12 samples.

Results

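Mitochondrially encoded transcripts are the RNAs made from the mitochondrion's own circular chromosome. Every gene whose symbol begins with mt- in the deposited tables was taken, which gave 37 of 54547 genes. Of these, 13 encode proteins, 2 encode the ribosomal RNAs of the mitochondrial ribosome and 22 encode tRNAs. The rule used the symbol alone and no measured value, but it was chosen with earlier results of these data known. The annotation of mouse genome build GRCm38 places all 37 on chromosome M, 28 on the plus strand and 9 on the minus strand, where mt-Nd6 and 8 tRNA genes lie. None of them has an intron.

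The mitochondrial chromosome is transcribed on both strands into long RNAs that cover many genes. The tRNAs lie between the other genes and are cut out, which frees the mRNAs and rRNAs, and much of the transcription ends behind the rRNA genes, so rRNA is usually the more abundant product. The 13 proteins are subunits of respiratory chain complexes I, III and IV and of ATP synthase, and each of these complexes also needs many subunits that the nucleus encodes. Brain tissue depends strongly on this chain for its energy.

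The 12 libraries fall into 4 groups of 3, all from mice of a mixed 129;C57BL/6 background. Both genotypes carry Msi1-CreER, a drug-inducible Cre recombinase named for Msi1, a gene of neural stem and progenitor cells. RasV12, a Ras protein held in its active state, was present in Msi1-CreER;RasV12 mice, and Msi1-CreER;GFP mice were the controls. From each genotype, GFP+ cells and CD11b+ phagocytes were profiled, taken from tumor in RasV12 mice and from cerebellum in control mice. Genotype and tissue of origin therefore differ together and cannot be told apart. Whether each library stands for its own animal is not stated by the labels, and the tests therefore weigh differences against the spread of libraries, which may be technical. The sources used here do not give the ages, the sort gates or what GFP marks in RasV12 mice.

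Values are normalized counts, the deposited read counts after division by a factor per library. Read totals recovered from them ran from 18519240 to 34432725 in the GFP+ libraries and from 7883870 to 34601205 in control CD11b+ libraries, while RasV12 CD11b+ libraries 1, 2 and 3 held 3642570, 2951629 and 23589310 reads. Each read was worth 0.358 to 1.5 normalized counts in 10 libraries and 4.46 and 5.54 in RasV12 CD11b+ 1 and 2. A count of 0 therefore allows up to 13.4 and 16.6 normalized counts in those libraries and at most 4.49 in the others (3 reads, counting error only). All 15 protein and rRNA genes had at least 10 normalized counts in all 12 libraries. Of the tRNA genes, 16 of 22 passed the filter of 10 normalized counts in at least 3 libraries. mt-Tp alone among them reached 10 in all 12, mt-Tl1, mt-Ti, mt-Tq, mt-Tm and mt-Tl2 reached it in 11, and the other 10 in 4 to 10 libraries. Where a gene passed through the groups in which it was high it had to differ, so the tRNA counts below are given as a description. mt-Tw, mt-Ty, mt-Td, mt-Tk, mt-Tr and mt-Th, the tRNA genes for tryptophan, tyrosine, aspartate, lysine, arginine and histidine, were not tested.

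Part of the mitochondrial sequence also exists in the nucleus, which decides how well some members can be counted. Alignment of the annotated transcripts of GRCm38 placed copies of 7 mitochondrial genes in a block of 4663 bases on chromosome 1, from 24611535 to 24616197 on the minus strand. These annotated pseudogenes, Gm29216, Gm28661, Gm10925, Gm28437, Gm28438, Gm10222 and Gm28439, match mt-Co1, mt-Co2, mt-Atp6, mt-Co3, mt-Nd3, mt-Nd4l and mt-Nd4 at 99.71 to 100% of aligned bases. Over the aligned stretches only mt-Co1 and mt-Nd3 differ from their copy, by 1 base each. These windows are shown because they hold the only letters, in capitals, that separate gene and copy (chrM:6390-6433 and chrM:9459-9501 on the plus strand, chr1:24616145-24616188 and chr1:24613077-24613119 on the minus strand).
mt-Co1: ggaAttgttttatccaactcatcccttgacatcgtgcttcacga
Gm29216: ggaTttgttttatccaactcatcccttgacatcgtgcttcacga
mt-Nd3: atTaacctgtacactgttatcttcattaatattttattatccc
Gm28438: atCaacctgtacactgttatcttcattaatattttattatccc
Counted from 1 at the first base of the mitochondrial gene, with its base first, the differences are A1066T and T3C. The other 10 aligned copies, outside the block, were 90.67 to 97.61% identical.

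Neighbouring genes also share bases with each other. mt-Atp8 and mt-Atp6, both parts of ATP synthase, overlap by 43 bases, and mt-Nd4l and mt-Nd4 of complex I overlap by 7 bases, shown in capitals below (chrM:7912-7984 and chrM:10152-10188, plus strand).
mt-Atp8/mt-Atp6: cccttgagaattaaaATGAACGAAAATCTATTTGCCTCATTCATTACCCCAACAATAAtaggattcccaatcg
mt-Nd4l/mt-Nd4: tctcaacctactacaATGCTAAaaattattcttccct
mt-Nd5 and mt-Nd6 overlap by 14 bases on opposite strands, and the library kit does not mark strand. The sources used here do not give how reads over such overlaps, or with more than 1 matching place, were counted.

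The share of a 50-base read's possible positions with an exact copy in another annotated transcript sorted the protein genes into 3 kinds. It was 100% for mt-Co2, 99.9% for mt-Co3, 99.5% for mt-Atp6, 98.8% for mt-Nd4l and 98.0% for mt-Nd3. mt-Nd4 and mt-Co1 had 62.2% and 51.1%, while mt-Nd2 and mt-Nd5 had 8.19% and 7.61% and the other 4 protein genes had 0%. Per length in control GFP+ cells, mt-Cytb, the complex III subunit cytochrome b, led with 794307 ± 319910 normalized counts per kb (SD, n = 3) and mt-Nd1 of complex I followed with 730208 ± 224377, a gap smaller than their spread. mt-Co1, the catalytic subunit of complex IV, had 378408 ± 119980, and mt-Nd4, mt-Nd2, mt-Nd5 and mt-Nd6 of complex I lay between 110174 and 220702 with SDs that overlap from each to the next.

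The 5 genes with a copy over nearly their whole length were far lower. mt-Co3 had 24152 ± 13783 normalized counts per kb, mt-Atp6 had 16482 ± 5216, mt-Co2 had 10078 ± 3406, and mt-Nd4l and mt-Nd3 had 2332 ± 946.1 and 2302 ± 826.5. mt-Atp8 had 12819 ± 3922 although no annotated transcript copies it; the stretch of chromosome 1 between Gm28661 and Gm10925, where a copy of it would lie, was not analysed here. With the counts of the chromosome 1 copy added, mt-Co2 came to between 12866 and 22566 per kb in the 3 control GFP+ libraries, still below the 110174 of mt-Nd6. These levels describe what was counted, and the copied genes cannot be ranked against the rest.

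**Figure D1:**
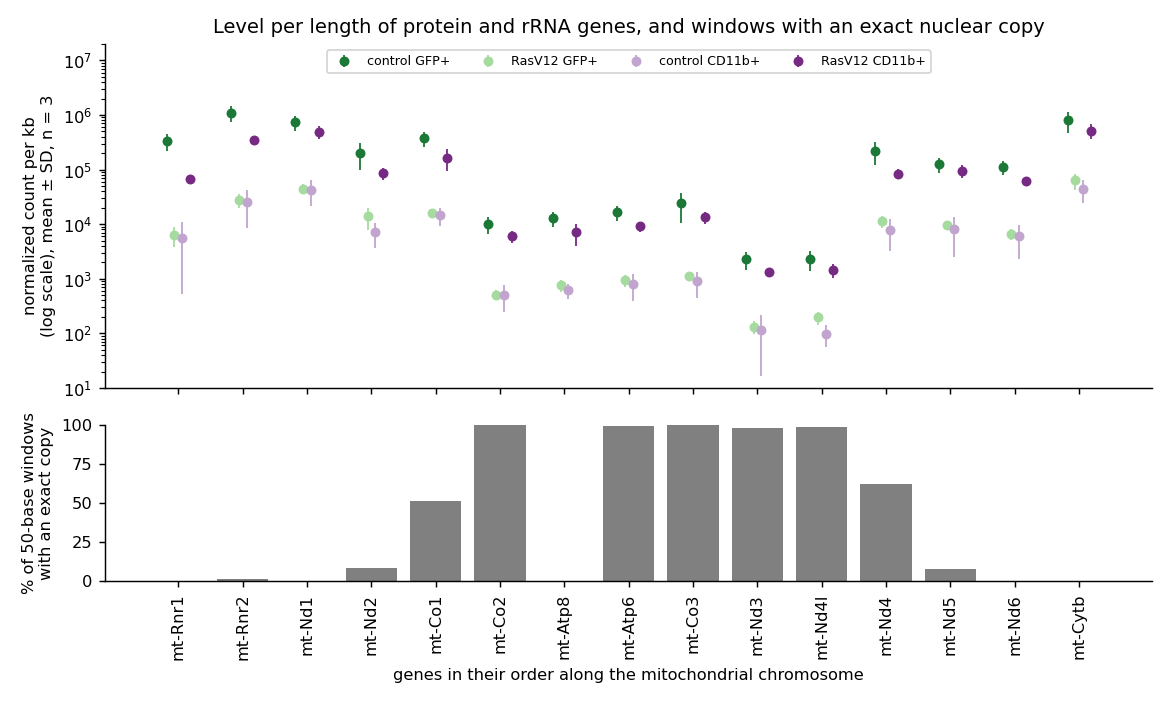
Upper panel: normalized counts per kb (log scale, mean ± SD, n = 3) of the 15 protein and rRNA genes in their order on the chromosome, by group. Lower panel: percent of 50-base windows with an exact copy in another annotated transcript; mt-Co2, mt-Atp6, mt-Co3, mt-Nd3 and mt-Nd4l, at 98.0 to 100%, sit low in all 4 groups, as does mt-Atp8 at 0%.

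The order was nearly the same in every group. mt-Cytb, mt-Nd1 and mt-Co1 held the first 3 places in all 4, and mt-Co3, mt-Atp6, mt-Atp8 and mt-Co2 held places 8 to 11 in all 4. The last 2 places went to mt-Nd4l and mt-Nd3. Places 4 to 7 held mt-Nd4, mt-Nd2, mt-Nd5 and mt-Nd6 in an order that varied, with SDs that overlap between neighbours.

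Reads from the 37 genes made up very different shares of the groups' libraries. In control GFP+ libraries 1, 2 and 3 they were 20.1%, 30.4% and 22.6% of all normalized counts, and in RasV12 GFP+ libraries 2.62%, 1.87% and 1.53%. The CD11b+ cells showed the reverse, with 1.32%, 2.54% and 0.63% in control and 17.7%, 14.4% and 13.3% in RasV12 libraries. No low library came near a high one. The exact 95% binomial interval of each share was at most 0.08 percentage points wide, so counting error is small beside the spread between libraries. In bulk RNA such a share cannot separate more mitochondrial RNA per cell from less of everything else, or from another mix of cells.

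By class, the protein genes held 14.5% ± 3.49 in control GFP+, 1.59% ± 0.443 in RasV12 GFP+, 1.14% ± 0.677 in control CD11b+ and 11.2% ± 2.59 in RasV12 CD11b+ cells (SD, n = 3). The 2 rRNA genes held 9.84% ± 1.89, 0.411% ± 0.123, 0.356% ± 0.295 and 3.96% ± 0.499 in the same order. The 22 tRNA genes were a trace throughout, with 0.0223% ± 0.00701, 0.00300% ± 0.00104, 0.00251% ± 0.00316 and 0.0299% ± 0.00366. In the rRNA class control GFP+ libraries lay above all others, while in the protein and tRNA classes the shares of control GFP+ and RasV12 CD11b+ libraries overlapped.

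**Figure D2:**
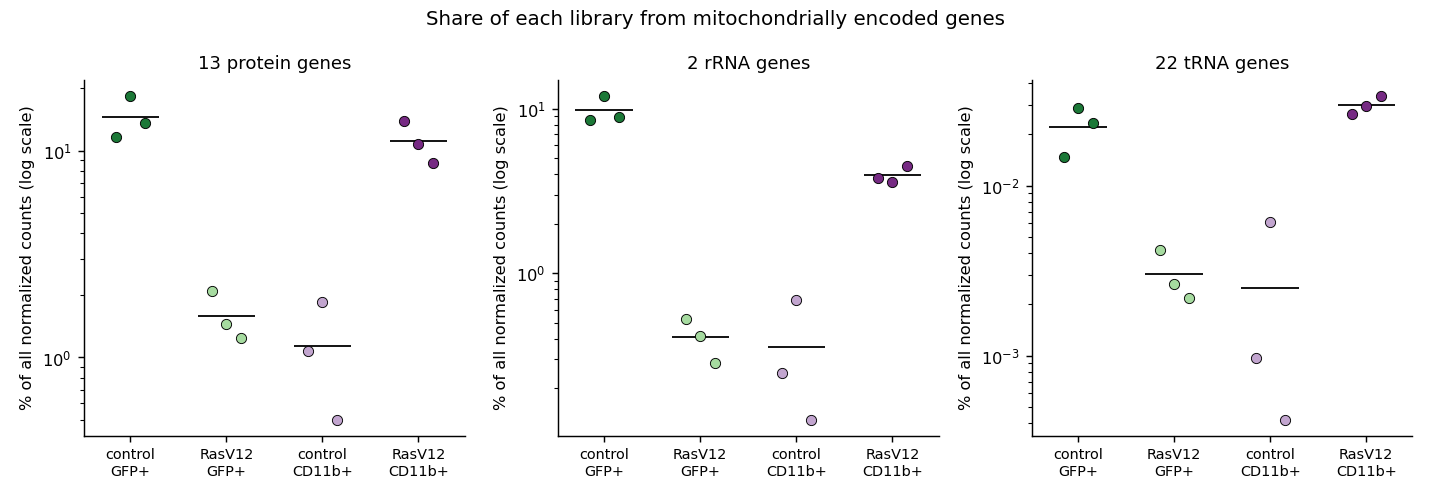
Percent of all normalized counts (log scale) from protein, rRNA and tRNA genes of the mitochondrial chromosome; points are the 3 libraries of a group and lines their mean. RasV12 GFP+ and control CD11b+ libraries sit low in all 3 panels, with 1.24 to 2.09% and 0.501 to 1.85% from protein genes.

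The first comparison set RasV12 GFP+ tumor cells against control GFP+ cells of the cerebellum. All 13 protein genes and both rRNA genes were lower in the RasV12 cells, with log2 fold changes of -5.72 to -3.51, and no library of one group overlapped the other for any of the 15. Among all 29835 genes tested, 2.65% were called lower and 10.9% were lower without overlap, and the median log2 fold change over all of them was 0.56. The log2 fold changes are on the log2(normalized count + 1) scale.

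Of these 15 genes, the rRNA genes had the largest log2 fold changes. mt-Rnr2, the large-subunit rRNA, had 1413413, 2355641 and 1421568 normalized counts in control and 54900, 45516 and 31047 in RasV12 GFP+ libraries (log2 fold change -5.30 ± 0.37 SE, adjusted p = 1.21e-05). mt-Rnr1, the small-subunit rRNA, had 239505, 435252 and 270672 against 8814, 5402 and 4035 (-5.72 ± 0.47, adjusted p = 3.28e-05). Control GFP+ 2 was the highest library for both.

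Among complex I genes, mt-Nd1, which encodes a core membrane subunit, had 542609, 943672 and 610147 in control and 52397, 40565 and 34978 in RasV12 GFP+ libraries (-4.01 ± 0.35, adjusted p = 3.91e-05). mt-Nd6, the one protein gene on the minus strand, had 49961, 75961 and 45619 against 4319, 3167 and 2874 (-4.03 ± 0.38). Its reads cannot be told apart from those of the plus-strand precursor across it, since the libraries do not mark strand. The other 5 complex I genes ranged from mt-Nd4l at -3.51 ± 0.75 to mt-Nd4 at -4.22 ± 0.37, with mt-Nd2 at -3.82, mt-Nd5 at -3.69 and mt-Nd3 at -4.07. mt-Nd4l was the least secure of the 15: it had 462.1, 1005.7 and 610.4 against 76.8, 49.3 and 48.6, and its adjusted p of 0.0132 rose to 0.0533, 0.0561 and 0.0531 without control GFP+ 2, RasV12 GFP+ 2 or RasV12 GFP+ 3.

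mt-Cytb of complex III had 640769, 1325673 and 759620 in control and 98758, 64585 and 53620 in RasV12 GFP+ libraries (-3.63 ± 0.35, adjusted p = 8.95e-05). mt-Co1 of complex IV had 447048, 795433 and 511440 against 30549, 21852 and 23077 (-4.51 ± 0.32, adjusted p = 1.21e-05), the largest fall among protein genes. mt-Co2 and mt-Co3 changed by -4.27 ± 0.47 and -4.32 ± 0.45, and mt-Atp8 and mt-Atp6 of ATP synthase by -4.06 ± 0.57 and -4.12 ± 0.44. Under quantile normalization, which forces all libraries onto one distribution, the calls of mt-Cytb (-0.63, adjusted p = 0.746), mt-Nd1 (-1.43, adjusted p = 0.236), mt-Rnr2 (-2.55, adjusted p = 0.0668) and mt-Nd4l (-3.07, adjusted p = 0.0886) were lost. By construction it gives the top-ranked genes of every library the same values.

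All 16 tRNA genes tested in GFP+ cells were lower without overlap, as were 10.9% of all genes. Of the 16, 8 were called lower, beside 2.65% of all genes: mt-Tq, mt-Ta, mt-Tn, mt-Tc, mt-Ts1, mt-Tg, mt-Te and mt-Tp. All of these but mt-Tg lie on the minus strand. mt-Tp, the proline tRNA, had 443.7, 370.5 and 399.8 in control and 39.7, 25.2 and 26.5 in RasV12 libraries (-3.71 ± 0.81, adjusted p = 0.0143). mt-Tc, the cysteine tRNA, had 377.1, 337.6 and 146.5 against 8.6, 1.7 and 4.6 (-5.66 ± 1.10). It stayed under the filter of 10 in all 3 RasV12 GFP+ libraries and was tested through the groups where it was high. Its call is therefore only a description. The other 8, mt-Tf, mt-Tv, mt-Tl1, mt-Ti, mt-Tm, mt-Ts2, mt-Tl2 and mt-Tt, all plus-strand genes, were lower too. They had log2 fold changes of -2.26 to -3.60 and did not pass. mt-Tm missed the limma threshold narrowly at -3.60 (adjusted p = 0.0518), and mt-Tn met it narrowly at -3.84 (adjusted p = 0.0496). The number that passed went from 8 to 2 without RasV12 GFP+ 2 and to between 3 and 5 without RasV12 GFP+ 1 or 3 or control GFP+ 2 or 3, and it was 4 by edgeR and 13 by DESeq2.

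The groups of this comparison also differed in cell type markers. The summed level of 8 oligodendrocyte markers ran from 968858 to 1609070 normalized counts in control GFP+ and from 2866 to 17702 in RasV12 GFP+ libraries, and all 8 fell. For 10 neuron markers the ranges were 61239 to 86515 and 2197 to 3313, with 8 of 10 lower, and for 8 astrocyte and Bergmann glia markers 265772 to 284216 and 36789 to 94744, with 3 of 8 lower. Of 5 erythroid markers 4 were lower, from sums of 8894 to 774410 down to 82.9 to 506.8. No marker of these 4 lists was at 0 in all 3 libraries of a GFP+ group. The part of these cell types in the fall of mitochondrial transcripts was not tested.

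The second comparison set CD11b+ phagocytes from RasV12 tumors against those from control cerebellum, and here the same 15 protein and rRNA genes were all higher, by 3.45 to 3.98 on the log2 scale, without overlap between libraries. Among all genes tested, 2.97% were called higher, 19.0% were higher without overlap, and the median log2 fold change was 0.74. By edgeR on the recovered reads, only 30 of 29835 genes were called higher, and 14 of these were mitochondrially encoded.

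mt-Rnr2 had 34810, 70332 and 17243 normalized counts in control and 552046, 512557 and 578791 in RasV12 CD11b+ libraries (3.97 ± 0.37, adjusted p = 0.000326). mt-Rnr1 had 3136, 11061 and 2071 against 62036, 71088 and 61324 (3.96 ± 0.47, adjusted p = 0.00115). For both, control CD11b+ 2 was the highest control library and still lay far below the lowest RasV12 one.

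mt-Nd1 had 50381, 54288 and 17903 in control and 592745, 467055 and 351260 in RasV12 CD11b+ libraries (3.65 ± 0.35, adjusted p = 0.000326). mt-Cytb had 52514, 74002 and 27411 against 774279, 603083 and 407471 (3.60 ± 0.35), and mt-Co1 had 26408, 27694 and 13172 against 373836, 235073 and 158730 (3.50 ± 0.32, adjusted p = 0.000326). The complex I genes mt-Nd2, mt-Nd4, mt-Nd5 and mt-Nd6 rose by 3.69, 3.58, 3.77 and 3.55, mt-Co2 and mt-Co3 by 3.67 and 3.98, and mt-Atp8 and mt-Atp6 by 3.45 and 3.66. The log2 values of the protein genes thus lay close together beside standard errors of 0.32 to 0.81.

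The scarcest members were the least certain here too. mt-Nd3 had 29.8, 79.3 and 12.2 in control and 454.5, 515.0 and 407.2 in RasV12 CD11b+ libraries (3.84 ± 0.81, adjusted p = 0.0194), and mt-Nd4l had 32.1, 40.4 and 15.2 against 557.0, 393.2 and 321.9 (3.88 ± 0.75, adjusted p = 0.0138). Without control CD11b+ 3 the adjusted p of mt-Nd3 was 0.0844 and that of mt-Nd4l 0.0613, and without control CD11b+ 1 that of mt-Nd3 was 0.0711. By edgeR these 2 genes did not pass (adjusted p = 0.0922 and 0.0772). With the 6 CD11b+ libraries alone, mt-Co2 (adjusted p = 0.0527), mt-Atp8 (0.0861), mt-Nd3 (0.101) and mt-Nd4l (0.0971) did not pass, which left 11 of the 15. Without the shallow RasV12 CD11b+ 1 and 2 together, which leaves 1 library assumed to vary like the other groups, mt-Nd3, mt-Nd4l and mt-Atp8 did not pass (adjusted p = 0.137, 0.108 and 0.0813).

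Of the 16 tRNA genes tested in CD11b+ cells, 15 were higher without overlap, as were 19.0% of all genes. Called higher were 13 of the 16, beside 2.97% of all genes. Among those called, mt-Tp went from 23.5, 43.4 and 10 to 659.5, 454.1 and 1086.4 (4.91 ± 0.81, adjusted p = 0.00756). mt-Tq, the glutamine tRNA, had 7.8, 82.3 and 13.5 against 664.0, 648.0 and 1022.8 (5.11 ± 0.95, adjusted p = 0.0117). mt-Tl2, a leucine tRNA, had 21.9, 184.1 and 5.2 against 623.9, 1030.1 and 485.3 (4.51 ± 1.12, adjusted p = 0.0363). mt-Tf, mt-Tv, mt-Tl1, mt-Ti, mt-Ta, mt-Tn, mt-Tc, mt-Ts1, mt-Te and mt-Tt were the others called, and mt-Tm (adjusted p = 0.0504), mt-Ts2 and mt-Tg did not pass. In control CD11b+ cells 12 tRNA genes of the 22 stayed under 10 in every library, so the calls of these tRNA genes are only a description. The count of 13 rests on single libraries, since it was 1 without control CD11b+ 1 or control CD11b+ 3, and 5, 3 and 7 without RasV12 CD11b+ 1, 2 or 3. Leaving out a GFP+ library, which only enters the shared estimate of spread, gave 8 without control GFP+ 1 or 3 or RasV12 GFP+ 1, 6 without RasV12 GFP+ 2 and 7 without RasV12 GFP+ 3.

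**Figure D3:**
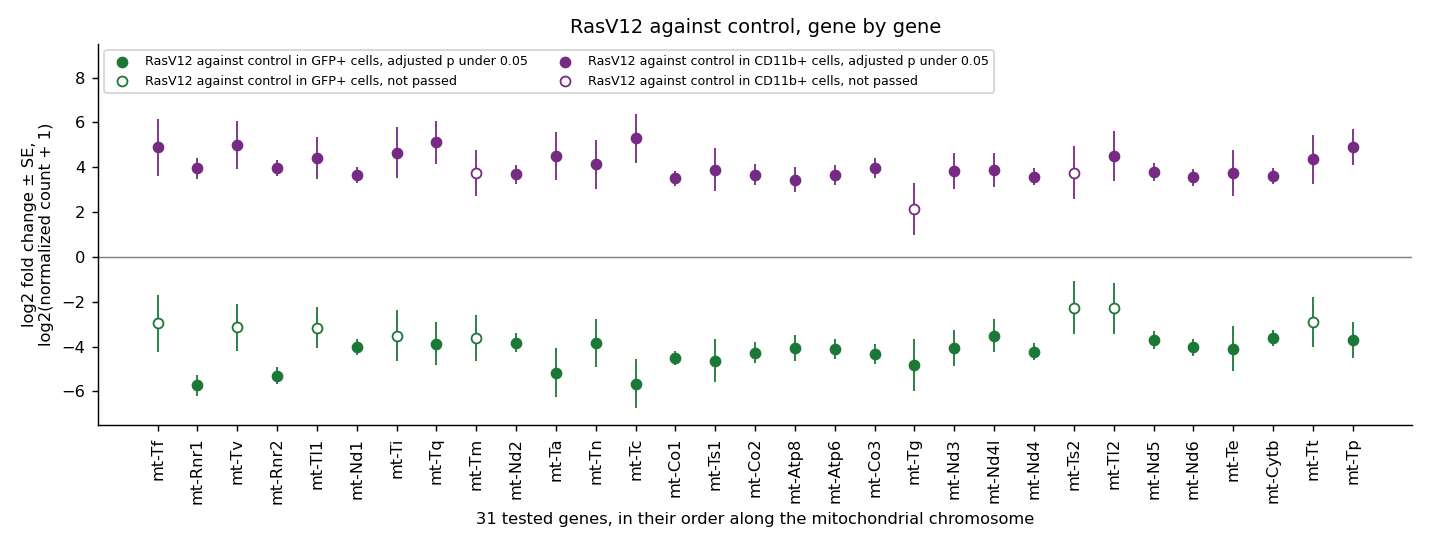
Log2 fold change ± SE of RasV12 against control for the 31 tested genes in chromosome order, green for GFP+ and purple for CD11b+ cells; filled points passed an adjusted p of 0.05 by limma. GFP+ values lie between -5.72 and -2.26 and CD11b+ values between 2.15 and 5.29, with larger errors for the tRNA genes.

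Other measures moved with this rise. The background of each library, taken as the level of 1458 olfactory and vomeronasal receptor genes that brain cells barely use, was 4.65, 37.8 and 4.77 normalized counts per kb in control and 79.0, 90.4 and 59.1 in RasV12 CD11b+ libraries, against 0.848 to 3.36 in GFP+ libraries. Control CD11b+ 2 was thus the highest of its group both in this background and in the mitochondrial share. Protein genes of the mitochondrial chromosome stood 3090, 505 and 1380 times above it per kb in control and 2500, 1720 and 1840 times in RasV12 CD11b+ libraries, ranges that overlap.

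Rn18s-rs5, a row for nuclear 18S ribosomal RNA, had 6044, 10602 and 3639 normalized counts in control and 124147, 141733 and 163303 in RasV12 CD11b+ libraries (4.53 ± 0.33, adjusted p = 7.8e-05). In GFP+ cells it had 26919, 27789 and 18930 in control and 19716, 13619 and 9550 in RasV12 libraries (-0.82 ± 0.33, adjusted p = 0.181). The summed level of 10 microglia and macrophage markers was 141892 to 578771 in control and 54905 to 70271 in RasV12 CD11b+ libraries, with none of the 10 called by limma or edgeR (4 lower at an unadjusted p under 0.05 by limma, 2 called lower by DESeq2) and none at 0. All 10 were higher in CD11b+ than in GFP+ cells of control mice, and 9 of 10 in tumors. The summed level of 10 neuron markers was 1222 to 3958 in control and 4191 to 7473 in RasV12 CD11b+ libraries, and that of 7 endothelial and pericyte markers 517.0 to 2317 and 3739 to 4492, both higher without overlap and with none at 0 in a whole group. Median log2 fold changes of these lists were 0.05 and 2.48. The sum of 8 oligodendrocyte markers went the other way, from 13377 to 15618 in control and from 5655 to 9503 in RasV12 CD11b+ libraries, without overlap. For 8 astrocyte and Bergmann glia markers the sums overlapped, at 5951 to 9499 and 8655 to 13890. Of the endothelial and pericyte markers 1 was called higher, of the neuron markers 1 was higher and 1 lower, of the oligodendrocyte markers 1 was lower and Cldn11 was at 0 in all 3 RasV12 CD11b+ libraries, and of the astrocyte and Bergmann glia markers 2 of 8 were higher. With the receptor background subtracted per kb, limma called 29 of 31 tested members higher in RasV12 CD11b+ cells, beside 643 of 23745 genes. The protein genes stood at least 505 times above this background per kb. Subtracting it could therefore barely change them, and the fit cannot show the part of background. The part of background, nuclear rRNA and cell mix in the rise was not tested.

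Between the cell types, the direction depended on the mice. In control cerebellum all 15 protein and rRNA genes were lower in CD11b+ than in GFP+ cells, with log2 fold changes of -6.19 to -4.18, and 15 of 16 tRNA genes tested were lower (6.91% of all genes called lower, 12.7% lower without overlap). mt-Rnr1 showed the largest of these differences among the 15 (-6.19 ± 0.47, adjusted p = 5.46e-06). In RasV12 tumors all 15 were higher in CD11b+ than in GFP+ cells, by 2.67 for mt-Nd2 to 3.68 for mt-Rnr2, as were 15 of 16 tRNA genes (29.8% of all genes called higher, 36.0% higher without overlap). mt-Ts2 in controls and mt-Tg in tumors were the tRNA genes that did not pass. These comparisons share their libraries with the RasV12 comparisons, so they restate the same 12 libraries from another side. In the tumor comparison the count of 15 tRNA genes was 2 by edgeR, 5 without RasV12 GFP+ 2, 4 without RasV12 GFP+ 3 and 8 without RasV12 CD11b+ 2. By edgeR, mt-Nd2 (adjusted p = 0.103), mt-Nd3 (0.0845) and mt-Nd4l (0.16) did not pass there either, nor did mt-Cytb (0.229), mt-Nd3 (0.0654) and mt-Nd4l (0.194) under quantile normalization, or mt-Nd3 (0.0766) and mt-Nd4l (0.101) without the shallow RasV12 CD11b+ libraries.

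The difference of the RasV12 effects between CD11b+ and GFP+ cells was itself tested. All 15 protein and rRNA genes and 15 of 16 tRNA genes were called, with the effect higher in CD11b+ cells, where 2.06% of all genes were called in that direction. For mt-Rnr1 the 2 effects differed by 9.68 ± 0.66 on the log2 scale (adjusted p = 5.55e-06), for mt-Rnr2 by 9.27 ± 0.53 and for mt-Co1 by 8.01 ± 0.45 (both adjusted p = 1.53e-06), while mt-Cytb differed by 7.23 ± 0.50. The median over all genes was 0.07 with a median SE of 1.93.

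Ratios within a library do not depend on the scaling between libraries, and they showed that rRNA and protein genes did not move in step in GFP+ cells. Per kb, rRNA genes stood 3.32, 2.91 and 2.98 times above protein genes in control GFP+ libraries but only 1.14, 1.3 and 1.03 times in RasV12 GFP+ ones. The ratio was 1.04, 1.68 and 1.15 in control CD11b+ and 1.23, 1.48 and 2.32 in RasV12 CD11b+ libraries. Control GFP+ libraries thus stood apart from the 9 others, and the other groups overlapped. The pair mt-Rnr2 and mt-Nd1, which are separated by a single tRNA gene and have exact copies over at most 1.04% of their 50-base windows, gave the same picture, with a ratio per kb of 1.5 ± 0.0854 in control GFP+, 0.617 ± 0.0726 in RasV12 GFP+, 0.595 ± 0.183 in control CD11b+ and 0.741 ± 0.227 in RasV12 CD11b+ cells (SD, n = 3).

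Between the rRNAs, mt-Rnr2 per kb was 3.33 ± 0.203 times mt-Rnr1 in control GFP+ cells and 4.5 ± 0.678, 5.19 ± 1.44 and 5.14 ± 0.704 times in RasV12 GFP+, control CD11b+ and RasV12 CD11b+ cells. The tRNA genes per kb came to 0.0115 ± 0.00170 of the protein genes in control GFP+ and 0.0142 ± 0.000907 in RasV12 GFP+ cells. In CD11b+ libraries that ratio was 0.00686, 0.0253 and 0.00639 in control and 0.0145, 0.0207 and 0.0293 in RasV12, and control CD11b+ 2 lay within the RasV12 range. Minus-strand genes gave 62.0%, 41.5% and 42.8% of tRNA counts in control GFP+ and 32.6%, 26.1% and 30.1% in RasV12 GFP+ libraries, without overlap, while the CD11b+ groups ran from 20.6 to 54.2% and from 29.6 to 53.8%. Reads of a minus-strand tRNA and of the plus-strand precursor across it cannot be told apart in these libraries.

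**Figure D4:**
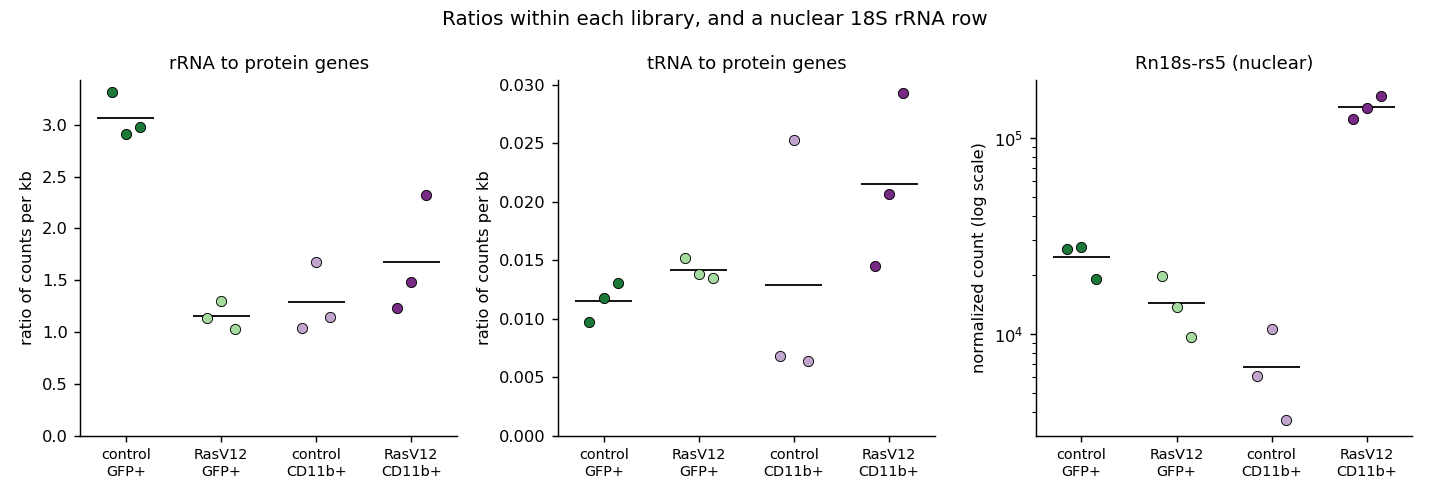
Ratio of rRNA to protein genes per kb, ratio of tRNA to protein genes per kb, and normalized count of Rn18s-rs5 (log scale); points are libraries and lines group means. Control GFP+ libraries stand at 2.91 to 3.32 in the first panel, above the other 9, and RasV12 CD11b+ libraries at 124147 to 163303 in the last.

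Within the protein genes the make-up differed by smaller amounts. mt-Cytb gave 29.7% ± 1.07 of their counts in control GFP+, 37.1% ± 2.15 in RasV12 GFP+, 34.1% ± 2.19 in control CD11b+ and 33.8% ± 0.797 in RasV12 CD11b+ cells. mt-Co1 gave 19.5% ± 0.885, 13.2% ± 1.64, 15.4% ± 2.46 and 14.2% ± 2.08. For both genes the control GFP+ libraries did not overlap with RasV12 GFP+ ones. Complex I genes together gave 45.0 to 53.0% in every library, and ATP synthase genes 0.404 to 0.484%, a share that includes only reads not given to the chromosome 1 copies.

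The chromosome 1 copies followed the genes they copy. Together they held 0.277% ± 0.0768 of normalized counts in control GFP+, 0.0248% ± 0.00477 in RasV12 GFP+, 0.0178% ± 0.0104 in control CD11b+ and 0.195% ± 0.0439 in RasV12 CD11b+ cells. Counts of Gm28437 were 0.956 to 1.35 times those of mt-Co3 over the 12 libraries, and counts of Gm28661 were 0.600 to 0.715 times those of mt-Co2. Gm29216, whose gene keeps 1062 bases outside the copy, had 0.00841 to 0.0147 times the counts of mt-Co1. With each copy's counts added to its gene, all 15 protein and rRNA genes kept their calls in the RasV12 comparisons, in a fit added after the data were seen. The copies moved with their genes, and the remaining genes have no copy in the block. This fit could therefore hardly have changed the calls.

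The nuclear genes of the same complexes moved less than the mitochondrial ones in GFP+ cells and did not rise with them in CD11b+ cells. Of 75 nuclear respiratory chain subunits tested, 20 fell in RasV12 GFP+ cells and none rose, where 2.65% of all genes were called lower and 4.14% higher, and their median log2 fold change was -1.32. None reached the -3.51 of the least changed mitochondrial protein genes, the nearest being Cox8a of complex IV, which fell from 39614 ± 2518 to 3808 ± 325 normalized counts (-3.38 ± 0.42, adjusted p = 0.000475). Nuclear genes were grouped into complexes by gene symbol alone, which places Ndufa4 (-2.19) in complex I. By complex, 8 of 35 nuclear genes of complex I were lower with a median of -1.25, beside -4.01 for the 7 mitochondrial ones. For complex III the count was 4 of 8 with a median of -1.43, and for complex IV 7 of 14 with -2.17 beside -4.32 for the 3 mitochondrial ones. ATP synthase had 1 of 14 lower with -1.22 beside -4.09, and complex II, which has no mitochondrially encoded subunit, 0 of 4 with -1.12. After Cox8a the smallest adjusted p-values were those of Ndufb9 and Ndufb8 of complex I and Cox4i1 of complex IV, at -2.68, -2.47 and -2.49 (adjusted p = 0.00133, 0.00294 and 0.00285). The count of 20 was sensitive to the fit, from 1 under quantile normalization and 5 by edgeR to 61 with only the 6 GFP+ libraries. It was 11, 9 and 10 without control GFP+ 1, 2 or 3 and 10, 8 and 7 without RasV12 GFP+ 1, 2 or 3.

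In CD11b+ cells 0 of the 75 nuclear subunits passed as higher and 2 as lower by limma. Over all genes 2.97% were called higher and 2.39% lower, and these small counts lie near those shares. At an unadjusted p under 0.05 limma had 2 higher and 13 lower, and edgeR called the same numbers as limma, 0 and 2. The 2 called lower by limma were Ndufs7 of complex I (1063 ± 561 to 247.2 ± 84.7) and Sdhc of complex II (676.3 ± 311.0 to 169.4 ± 109.6). The median of the 75 was -0.45 while all 13 mitochondrial genes were higher. Medians by complex were -0.38 for complex I, -1.28 for II, -0.33 for III, -0.52 for IV and -0.52 for ATP synthase. In tumors, where the mitochondrial genes were higher in CD11b+ than in GFP+ cells, 59 of the 75 nuclear genes were lower (10.2% of all genes called lower) with a median of -2.27. In control cerebellum both genomes pointed the same way, with 65 of 75 nuclear genes lower (6.91% of all genes) and a median of -3.08. The difference of the RasV12 effects passed as higher for 4 of the 75 (2.06% of all genes), with a median of 1.04 beside 7.66 for the mitochondrial protein genes. By DESeq2, 2 subunits were called higher in RasV12 CD11b+ cells. Without control CD11b+ 2, 3 were called higher and 10 lower, without RasV12 CD11b+ 3, 1 and 6, and without control CD11b+ 1, control CD11b+ 3 or RasV12 CD11b+ 2, 0 were called lower.

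**Figure D5:**
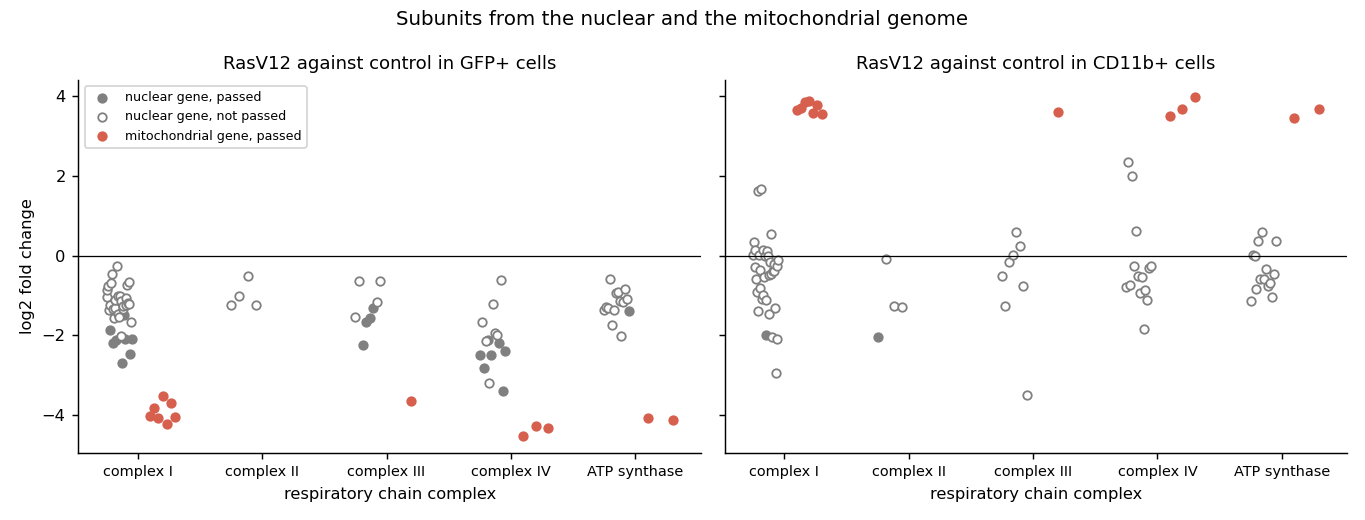
Log2 fold change of RasV12 against control for nuclear (grey) and mitochondrial (red) respiratory chain subunits, in GFP+ cells on the left and CD11b+ cells on the right. Complexes were assigned by gene symbol alone. Filled points passed an adjusted p of 0.05 by limma. No nuclear subunit reaches the mitochondrial ones, which lie at -4.51 to -3.51 and at 3.45 to 3.98.

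Few genes passed in the nuclear machinery that copies, reads and processes the mitochondrial chromosome. The shares over all genes were small too, with 4.14% called higher and 2.65% lower in GFP+ cells. In CD11b+ cells they were 2.97% and 2.39%. Of 18 genes for replication and transcription, none passed in either RasV12 comparison by limma or edgeR. At an unadjusted p under 0.05, limma had 1 higher in GFP+ and 4 lower in CD11b+ cells, and DESeq2 called 1 higher in GFP+ cells. Polrmt, the mitochondrial RNA polymerase, stood at 1.63 ± 1.29 in GFP+ and -0.34 ± 1.29 in CD11b+ cells on the log2 scale, and Tfam, which packs the DNA and starts transcription, at 0.74 ± 1.2 and -0.05 ± 1.2. Of 22 genes for RNA processing and stability, 1 passed, Fastkd3, listed at 0 in all 3 RasV12 CD11b+ libraries and at 271.9 ± 237.4 in control CD11b+ cells. In the shallow RasV12 CD11b+ libraries 1 and 2 a count of 0 allows up to 13.4 and 16.6 normalized counts. Lrpprc, which binds and stabilises mitochondrial mRNAs with Slirp, stood at -0.34 ± 0.58 and 0.39 ± 0.58, and Slirp at -0.42 in GFP+ cells; neither passed. Of 76 mitochondrial ribosomal proteins, none passed in GFP+ cells by limma, with 2 higher and 1 lower at an unadjusted p under 0.05, and 1 higher and 1 lower by DESeq2. In CD11b+ cells 3 of 76 were lower, a share near the 2.39% of all genes called lower: Mrpl11, at 210.6 ± 74.6 in control and 0 in every RasV12 CD11b+ library, Mrpl44 from 593.6 ± 14.7 to 13.3 ± 11.8, and Mrps31 from 349.6 ± 82.8 to 17.5 ± 13.3. The RasV12 means of these 3 lie near what a count of 0 allows in the shallow libraries.

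Translation factors and tRNA synthetases numbered 28, with 1 higher in each comparison, near the share of all genes called higher (4.14% in GFP+ and 2.97% in CD11b+ cells). In GFP+ cells it was Ears2, the glutamyl-tRNA synthetase, listed at 0 in control and at 111.0 ± 79.9 in RasV12 libraries. In CD11b+ cells it was Lars2, the leucyl-tRNA synthetase, from 3698 ± 2605 to 26887 ± 6598 (3.07 ± 0.42, adjusted p = 0.00313), though edgeR called none of the 28 in CD11b+ cells. Of 14 regulators of mitochondrial biogenesis, none passed in CD11b+ cells by limma, edgeR or DESeq2. At an unadjusted p under 0.05 limma had 2 higher and 1 lower there. In GFP+ cells 2 rose and 2 fell, where 4.14% of all genes were called higher and 2.65% lower. Ppargc1b, a coactivator of mitochondrial genes, fell from 129.2 ± 83.5 to 3.3 ± 2.9 (-5.12 ± 1.12, adjusted p = 0.0143), and Sirt3, a mitochondrial deacetylase, from 1442 ± 686 to 194.5 ± 10.2 (-2.79 ± 0.64, adjusted p = 0.0178). Gabpb1, a subunit of the activator NRF-2, rose from 316.5 ± 98.2 to 1080 ± 235 (1.79 ± 0.49, adjusted p = 0.0448), and Prkaa2, a catalytic subunit of AMP-activated kinase, from 13.6 ± 23.0 to 307.7 ± 117.1 (6.17 ± 1.36, adjusted p = 0.0151). Ppargc1a, the best-known coactivator of this group, stood at -1.19 ± 0.80 in GFP+ and 1.77 ± 0.80 in CD11b+ cells and did not pass in either.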

How the data were processed

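RNA-seq libraries were made with the SMARTer Universal Low Input kit and Nextera XT, per the labels' protocols, a route that does not mark strand. The submitters' processing notes name build GRCm38.p6 with HISAT2 2.1.0, and also DESeq2 1.20.0, Subread 1.6.2 with featureCounts, and bcl2fastq 2.17.1.14. The authors deposited gene counts normalized between libraries, used here as a signal, and a table of FPKM values. In the normalized counts, 100% of the low values checked in each library were whole multiples of 1 read within 0.05 normalized counts, which gave back the reads.

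Genes with at least 10 normalized counts in at least 3 of the 12 libraries (29835) were fitted with limma 3.58.1 (trend) in R 4.3.3 on log2(normalized count + 1), with 4 group means. P-values were adjusted by Benjamini-Hochberg over all genes, at a threshold of 0.05, in 5 comparisons. The fit was also run on simulated counts with the same spread setting for every gene, which checks its code and not its calls in these libraries. Intervals are exact Clopper-Pearson at 95% and cover counting error only, since PCR reads carry no molecular identifiers. Copies were found with BLAST 2.17.0 among GENCODE M21 transcripts (at least 100 bases and 90% identity), to which 98.5% of gene IDs matched. Tables and figures used Python 3.11.15, pandas 2.3.3, scipy 1.17.1 and matplotlib 3.10.9.

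All mitochondrial protein and rRNA genes were named, tRNA genes called in a comparison or among the 3 highest, and, of nuclear lists, up to 4 called genes with the smallest adjusted p, with Polrmt, Tfam, Lrpprc, Slirp, Ppargc1a and Rn18s-rs5 in any case. Members and lists were chosen with earlier results of these data known. Alternatives were edgeR 4.0.16 and DESeq2 1.42.0 on the recovered reads, other scalings, filters, pseudocounts and spread models, the FPKM table, background subtraction, a replicate block, and fits without each library or the 2 shallow ones.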

Additional observations from a re-analysis of the deposited data

Results flagged for a closer look

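The log2 effect of RasV12 in CD11b+ cells minus that in GFP+ cells was tested directly with limma in the fit over all 29835 genes, and 30 mitochondrially encoded genes passed. For the rRNA genes the difference was 9.68 for mt-Rnr1 and 9.27 for mt-Rnr2. For complex I genes it was 7.66 for mt-Nd1, 7.51 for mt-Nd2, 7.91 for mt-Nd3, 7.80 for mt-Nd4, 7.39 for mt-Nd4l, 7.47 for mt-Nd5 and 7.59 for mt-Nd6. For complexes III and IV it was 7.23 for mt-Cytb, 8.01 for mt-Co1, 7.95 for mt-Co2 and 8.30 for mt-Co3, and for ATP synthase 7.78 for mt-Atp6 and 7.51 for mt-Atp8. For tRNA genes it was 7.85 for mt-Tf, 8.13 for mt-Tv, 7.56 for mt-Tl1, 8.16 for mt-Ti, 8.98 for mt-Tq, 7.34 for mt-Tm, 9.67 for mt-Ta and 7.97 for mt-Tn. The remaining tRNA genes that passed had 10.96 for mt-Tc, 8.52 for mt-Ts1, 6.97 for mt-Tg, 6.81 for mt-Tl2, 7.82 for mt-Te, 7.26 for mt-Tt and 8.63 for mt-Tp. Of the tRNA genes, mt-Tp alone reached the filter on low values in all 12 libraries, so the calls of the other tRNA genes are only a description. With the receptor background subtracted per kb, all 31 tested members passed as higher, beside 462 of 23745 genes. The protein genes stood at least 505 times above this background per kb, so subtracting it could barely change them. The part of tissue, cell mix and library background in these differences was not tested.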

How the results depend on the processing

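Protein and rRNA genes kept their direction in every alternative run, with 27 single-gene values in all that no longer passed. Over all members, 4398 alternative values gave 3943 on the same side of the threshold, 396 that no longer passed, 55 that newly passed and 4 that reversed: mt-Tg in the RasV12 comparison of CD11b+ cells without the shallow libraries (-0.16), and in tumors mt-Tg under quantile normalization (-1.01) and without the shallow libraries (-0.58) and mt-Te under quantile normalization (-0.3). The cause was not tested. The tRNA genes called lower in GFP+ cells were 8, with array weights or DESeq2 13 and by edgeR 4. The 13 called higher in CD11b+ cells were 7 under upper-quartile scaling, 8 under quantile normalization or with no filter, 0 with 6 libraries, 1 without the shallow libraries and 1 by edgeR. The 15 in tumors were 7 under upper-quartile scaling, 2 under quantile normalization, 1 without the shallow libraries and 2 by edgeR, and the 15 in the difference of effects were 9 without the shallow libraries and 9 by edgeR. The 20 nuclear respiratory chain subunits lower in GFP+ cells were 1 under quantile normalization, 10 under nuclear total scaling, 11 with no filter, 37 with array weights, 61 with 6 libraries, 8 after background subtraction, 5 by edgeR and 34 by DESeq2. In CD11b+ cells the 0 higher became 1 with the FPKM table or pseudocount 10 and 2 with array weights or DESeq2. The 2 lower became 4 under upper-quartile scaling, 10 under quantile normalization, 1 with pseudocount 0.5, a filter at 1, no filter or without the shallow libraries, 6 with array weights or after background subtraction, and 0 with 6 libraries. In tumors the 0 higher became 1 with array weights, 6 libraries or DESeq2, and the 59 lower became 27 without the shallow libraries. The 4 higher in the difference became 1 under upper-quartile scaling or after background subtraction, 0 under quantile normalization or edgeR, 2 under nuclear total scaling or with no filter, 14 with array weights, 17 without the shallow libraries and 13 by DESeq2. The mitochondrial share of the FPKM sum was 41.1% in control GFP+, 5.0% in RasV12 GFP+, 3.66% in control CD11b+ and 27.6% in RasV12 CD11b+ cells. Protein genes over genes other than rRNA gave 16.2% in control GFP+ and 11.7% in RasV12 CD11b+ cells. Leaving out each library in turn gave 14 to 15 protein and rRNA genes in GFP+, 13 to 15 in CD11b+ cells and 15 to 15 in the other comparisons. The tRNA counts became 2 to 12 in GFP+, 1 to 15 in CD11b+, 11 to 16 in control cerebellum, 4 to 15 in tumors and 11 to 16 in the difference. Chain subunits became 7 to 26 lower in GFP+, 0 to 10 lower and 0 to 3 higher in CD11b+, 61 to 67 lower in control cerebellum, 46 to 63 lower and 0 to 2 higher in tumors and 1 to 8 in the difference. Shares of control and RasV12 GFP+ and control and RasV12 CD11b+ cells became 21.4 to 26.5%, 1.7 to 2.25%, 0.975 to 1.93% and 13.9 to 16.1%, the rRNA to protein ratios 2.95 to 3.15, 1.08 to 1.22, 1.09 to 1.42 and 1.35 to 1.9, and the tRNA to protein ratios 0.0108 to 0.0124, 0.0136 to 0.0145, 0.00662 to 0.0161 and 0.0176 to 0.025. Deviations from the group means correlated from -0.029 to 0.09 between same-numbered libraries and from -0.12 to 0.083 between differently numbered ones. No pairing by number was seen, but values this close to each other cannot exclude it. A replicate block left 15 protein and rRNA genes in all 5 comparisons, with 7, 9, 15, 13 and 15 tRNA genes, 14 chain subunits lower in GFP+ and 1 lower in CD11b+ cells, and 2 higher in the difference. Over all genes the calls in GFP+ cells were 1235 higher and 792 lower, 514 and 529 under quantile normalization and 1593 and 614 under nuclear total scaling. In CD11b+ cells they were 886 and 713, 739 and 1682 under quantile normalization and 643 and 2634 after background subtraction, where the median log2 fold change moved from 0.74 to -0.96. Summing the chromosome 1 copies with their genes was chosen after seeing the data.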
